A study of Mus musculus with 11 samples.

Results

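Complement and blood coagulation are plasma protease cascades whose proteins are made mainly by hepatocytes, and the liver messages for 37 of these proteins were followed here by gene symbol, with the fibrinogen chains left out. Members were taken as every probe set whose platform annotation carried one of the 37 symbols alone. This gave 35 genes with 48 probe sets, of 12393 genes on the array with a symbol of their own. The symbol C4b stood only on a probe set shared with another gene, so C4b was left out, and C3 was not analysed here. The 35 genes all passed the limit on dim probe sets, a mean signal of about 53.0, and the brightest probe set stood for each of the 7 genes that had several.

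The samples were total liver RNA of 11 mice, all male and of mixed background, with one oligonucleotide array per mouse. Double transgenic mice carrying Akt1 and fed high fat (n = 4) were compared with wild-type mice fed high fat (n = 4), and wild-type mice fed a normal, control diet formed the third group (n = 3). Akt1 is a kinase that acts downstream of the insulin receptor, and the study asked how the diet and Akt1-driven muscle growth affect the liver. Every mouse of the 3 groups had received doxycycline for 3 weeks, so exposure to the drug was common to transgenic and wild-type mice. Muscle hypertrophy is noted in the labels for the transgenic mice and not for the others. From knowledge of the model rather than the labels, the doxycycline-induced Akt1 transgene is driven in skeletal muscle and not in the liver. No transgenic group on the normal diet was among the samples, so an effect of the transgene could be measured on the high-fat diet only, and the labels used here give no age.

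Complement is started by antibody-bound C1 (the classical pathway), by mannose-binding lectins (the lectin pathway) or by spontaneous turnover amplified by factor B (the alternative pathway), and all routes end in a pore called the membrane attack complex. Coagulation runs through vitamin K-dependent serine proteases that end in thrombin, is primed in the test tube by the contact system, and is held back by antithrombin, heparin cofactor II and the protein C and protein S pair. Several complement components, among them factor B and C1 inhibitor, are known to be raised in the liver during the acute phase response.

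Each array reported a linear MAS5 signal for 22690 probe sets. Median signals per array were between 97.2 and 118. The signal at percentile 99 was 12100 to 13877 in transgenic arrays, 11518 to 12275 in wild-type high-fat arrays and 11481 to 12407 in normal-diet arrays, with transgenic arrays 3 and 4 highest. Of the 35 members, 13 had a mean signal over 10000. The 198 genes tested with such a signal had a median log2 difference of 0.084 between transgenic and wild-type mice fed high fat, against -0.0012 in the other 7726 genes tested. Transgenic array 3 also had the lowest mean poly-A spike signal, 113 against 277 to 468 in the other 10 arrays. Hepatocyte markers were bright in each group, with Alb, the gene of albumin, at mean signals of 26513, 22962 and 21422 in transgenic, wild-type high-fat and normal-diet mice. The 8 skeletal muscle markers, which check for carried-over muscle, together summed to 172 to 300.4 in transgenic and 171 to 295 in wild-type high-fat livers, against 105 to 140.3 in normal-diet livers, and none reached the limit for dim probe sets. Signals of different probe sets are not on a common scale, so levels are compared within a gene only.

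Between transgenic and wild-type mice on the high-fat diet, 0 of 35 members passed limma's test at an adjusted p of 0.05 (0.366% of all 7924 genes did), but most members had higher signals in the transgenic livers. The median log2 difference over the members was 0.18, against 0.0010 over all genes tested, and 27 of 35 lay above 0 (77.1%, against 50.2% of all genes). The 9 hepatocyte markers tested had a like median of 0.19, with 8 above 0, and summed to 169343 to 232445 in transgenic against 169788 to 181897 in wild-type high-fat arrays, and their part in the members' differences was not tested. At an unadjusted p under 0.05, which 13.7% of all genes had, 12 members were higher (34.3%, against 6.95% of all genes) and 0 were lower (against 6.74%). For 11 members each transgenic array was above each wild-type high-fat array (31.4%, against 4.32% of all genes), and 0 members had the opposite arrangement (against 4.09%). The 12 members were F10, Pros1, F7, Cfb, Cfi, Serping1, F9, Clu, Kng1, Vtn, C8a and Plg, with log2 differences between 0.18 and 0.58 and adjusted p from 0.0608 to 0.361 in limma's test. In whole-tissue RNA, more cells of a type and more RNA per cell cannot be told apart.

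**Figure D1:**
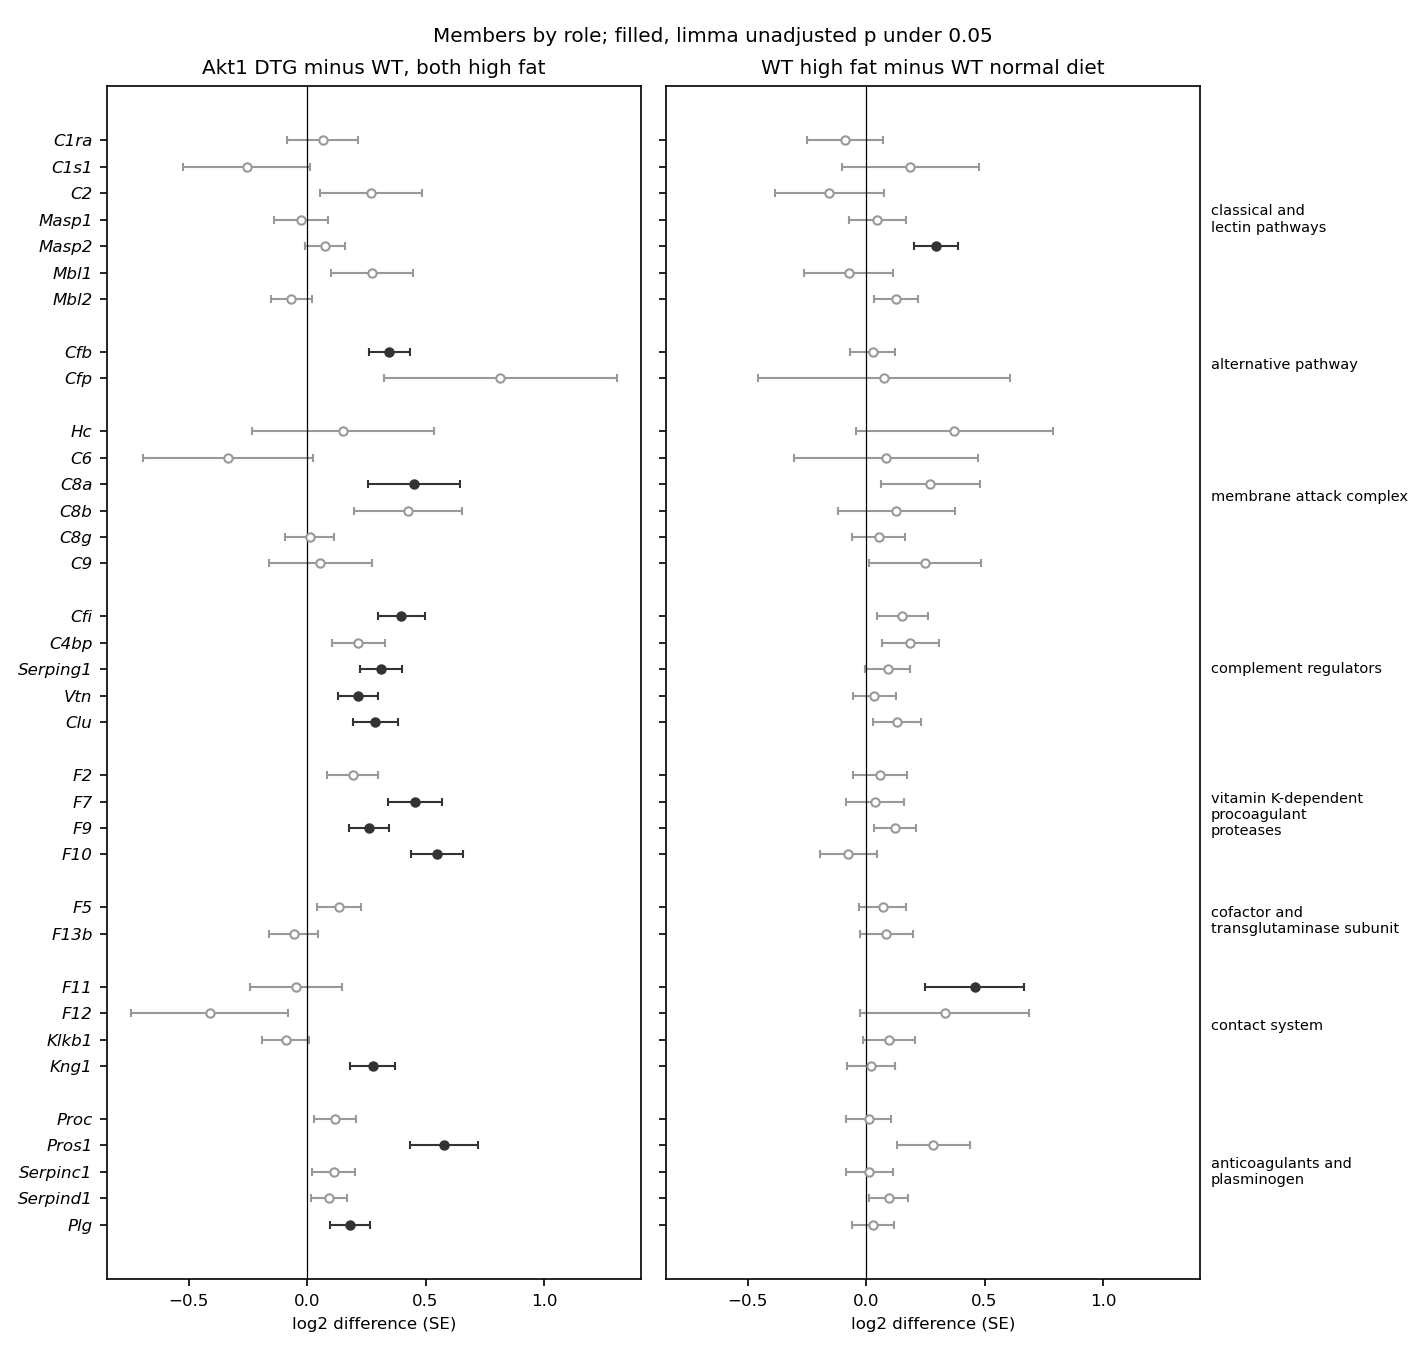
Log2 difference of each of the 35 members (horizontal axis, point with SE) between transgenic and wild-type mice on the high-fat diet (left) and between high-fat and normal diet in wild-type mice (right), grouped by role; filled points had an unadjusted limma p under 0.05. On the left, 12 points are filled, all to the right of 0, and 3 of the 4 contact system genes lie left of 0, while on the right only Masp2 and F11 are filled.

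Scaling mattered for the brightest members. The 13 members with a mean signal over 10000 had a median log2 difference of 0.21 as deposited and 0.076 after quantile normalization, which gives every array the same distribution. The 22 dimmer members had 0.13 as deposited and 0.11 after quantile normalization. Over all 35 members the quantile-normalized median was 0.11, against -0.022 over all genes. Of the members 24 then lay above 0, and 8 were higher at an unadjusted p under 0.05. Among all genes tested, 84 of the 198 with a signal over 10000 and 3562 of the other 7727 lay above 0. Leaving out transgenic arrays 3 and 4 gave a median of 0.13 and also 8 members at an unadjusted p under 0.05. The share of all genes at that p is not given for either setting, so both counts of 8 stand without a background.

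**Figure D2:**
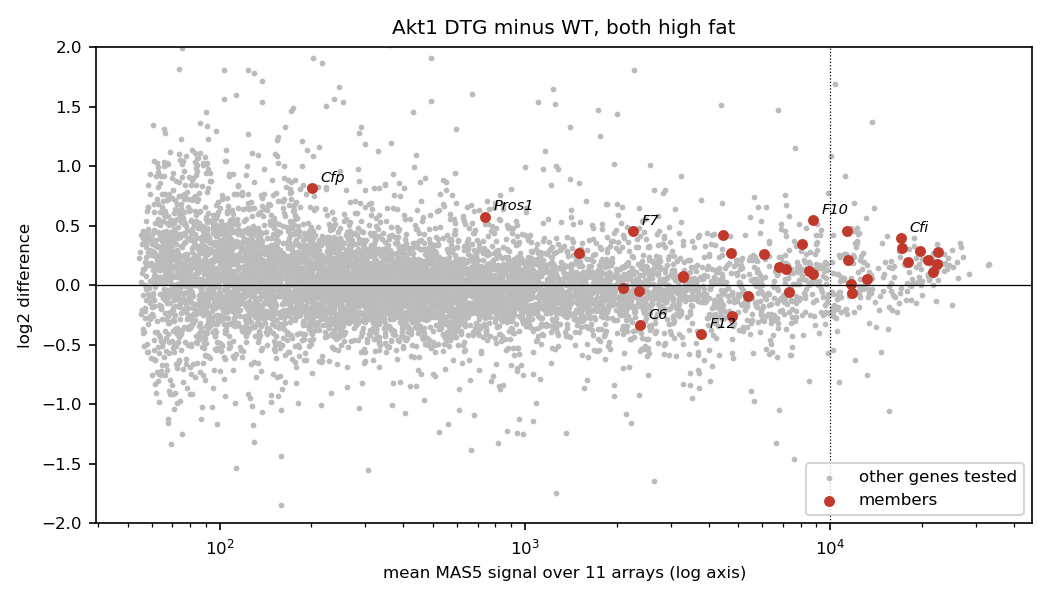
Log2 difference between transgenic and wild-type mice fed high fat (vertical axis) against mean signal over the 11 arrays (horizontal log axis) for the genes tested, members in red and other genes in grey; the dotted line marks a signal of 10000, and 17 other genes lie beyond the vertical limits of -2 and 2. Most members lie above 0, with Cfp, at 0.81, highest, followed by Pros1 and F10.

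The 3 smallest p-values among the members belonged to vitamin K-dependent factors, enzymes and cofactors that need carboxylated glutamates to bind membranes. Factor X, encoded by F10, is the protease that cuts prothrombin to thrombin. F10 had signals of 9673, 9869, 12124 and 11767 in transgenic arrays 1 to 4, against 7407, 8301, 6805 and 7117 in wild-type high-fat arrays 1 to 4. Every transgenic array was above every wild-type high-fat array. The means were 10858 ± 1266 and 7407 ± 645 (SD, n = 4 each), a 1.46-fold difference (log2 0.55 ± 0.11 SE, limma adjusted p = 0.0608). F10 passed without wild-type high-fat array 2 (limma adjusted p = 0.0418), without transgenic array 1 (0.0498) and with array weights (0.0358), and its adjusted p over all alternatives ranged from 0.0358 to 0.324. The other probe sets of F10 lay at 0.26 ± 0.12 and 0.39 ± 0.11 in the fit of every probe set.

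F7 encodes factor VII, the protease that tissue factor activates, and is the direct chromosomal neighbour of F10 in RefSeq (GRCm38.p6). Its signals were 2627, 3033, 2305 and 3054 in transgenic arrays, against 1956, 2279, 1977 and 1807 in wild-type high-fat arrays. The groups did not overlap, although transgenic array 3 was close to wild-type high-fat array 2. The log2 difference was 0.45 ± 0.11 (limma adjusted p = 0.112). Factor IX, the product of F9, had 7138, 6965, 6503 and 7177 in transgenic arrays, against 5856, 5525, 5835 and 5950 in wild-type high-fat arrays. The groups were apart and narrow, with a log2 difference of 0.26 ± 0.083 (adjusted p = 0.201 in limma's test). F2, which encodes prothrombin, had a log2 difference of 0.19 ± 0.11 and 0.076 after quantile normalization, and its transgenic arrays 3 and 4, at 22219 and 22551, were well above transgenic arrays 1 and 2, at 16981 and 17574, against 16285 to 18293 in wild-type high-fat arrays.

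Pros1 encodes protein S, the vitamin K-dependent cofactor of activated protein C, and is an inhibitor of clotting rather than a procoagulant. Its signals were 930.3, 963, 960.3 and 1047 in transgenic arrays, against 580.0, 844, 638 and 584 in wild-type high-fat arrays. The transgenic arrays were close to each other and all above the wild-type ones, of which array 2 was nearest. The means were 975 ± 50.2 and 661 ± 125 (SD, n = 4 each), a 1.49-fold difference (log2 0.58 ± 0.14, limma adjusted p = 0.111). Pros1 passed without wild-type high-fat array 2 (limma adjusted p = 0.0372). Proc, which encodes protein C itself, had a difference of 0.12 ± 0.089, and 0.060 after quantile normalization.

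The starts of these 4 genes are shown because they were the vitamin K-dependent members with an unadjusted p under 0.05. Each sequence runs from 250 bases before to 50 after the start in RefSeq (GRCm38.p6), 5′ to 3′ on the gene's strand, and all 4 genes lie on the plus strand. Capitals mark matches, on either strand, to TTCNNNGAA (the core bound by STAT factors) or TTNNGNAA (a loose C/EBP core).
F10 chr8:13037058-13037357: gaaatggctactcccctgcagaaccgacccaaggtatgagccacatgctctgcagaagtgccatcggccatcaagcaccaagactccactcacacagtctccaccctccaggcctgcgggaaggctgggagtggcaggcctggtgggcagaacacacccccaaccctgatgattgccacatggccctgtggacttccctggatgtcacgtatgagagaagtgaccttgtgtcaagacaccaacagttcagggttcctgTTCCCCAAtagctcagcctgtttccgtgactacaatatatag
F7 chr8:13025784-13026083: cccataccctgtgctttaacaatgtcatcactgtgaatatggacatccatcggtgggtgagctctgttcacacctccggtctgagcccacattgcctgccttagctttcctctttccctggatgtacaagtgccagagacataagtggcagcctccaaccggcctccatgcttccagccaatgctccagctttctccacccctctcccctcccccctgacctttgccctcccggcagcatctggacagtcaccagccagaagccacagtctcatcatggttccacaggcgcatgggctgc
F9 chrX:59999214-59999513: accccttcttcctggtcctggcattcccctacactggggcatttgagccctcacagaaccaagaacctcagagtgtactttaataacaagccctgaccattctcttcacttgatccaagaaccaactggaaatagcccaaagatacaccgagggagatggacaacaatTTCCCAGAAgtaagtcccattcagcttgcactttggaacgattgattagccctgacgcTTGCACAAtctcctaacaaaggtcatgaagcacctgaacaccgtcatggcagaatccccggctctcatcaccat
Pros1 chr16:62854057-62854356: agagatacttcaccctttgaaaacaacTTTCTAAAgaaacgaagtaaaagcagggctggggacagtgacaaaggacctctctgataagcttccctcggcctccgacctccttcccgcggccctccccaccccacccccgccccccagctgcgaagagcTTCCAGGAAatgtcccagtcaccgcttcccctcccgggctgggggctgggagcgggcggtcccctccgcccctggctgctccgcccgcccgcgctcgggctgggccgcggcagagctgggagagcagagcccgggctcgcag
The starts of F9 and Pros1 held a match to both motifs and that of F10 to the C/EBP core alone, while F7 held neither in this window, and no 2 matches overlapped. Over the 28 listed starts of 26 members, 6 held the STAT core (21.4%, against 8.3% of 32851 starts in the table) and 16 the C/EBP core (57.1%, against 40.7%). No start was listed for C2, Masp1, Cfb, Cfi, Serping1, Clu, Kng1, Proc and Plg. Of these, Cfb, Cfi, Serping1, Clu, Kng1 and Plg had an unadjusted p under 0.05 between transgenic and wild-type mice fed high fat. The cores bound by NF-kB and HNF1, and CAAAGTCCA, bound by HNF4, were in 0 of the 28 member starts, and in 1.63%, 0.00913% and 0.475% of all starts. A match is a string of letters and not a bound site.

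**Figure D3:**
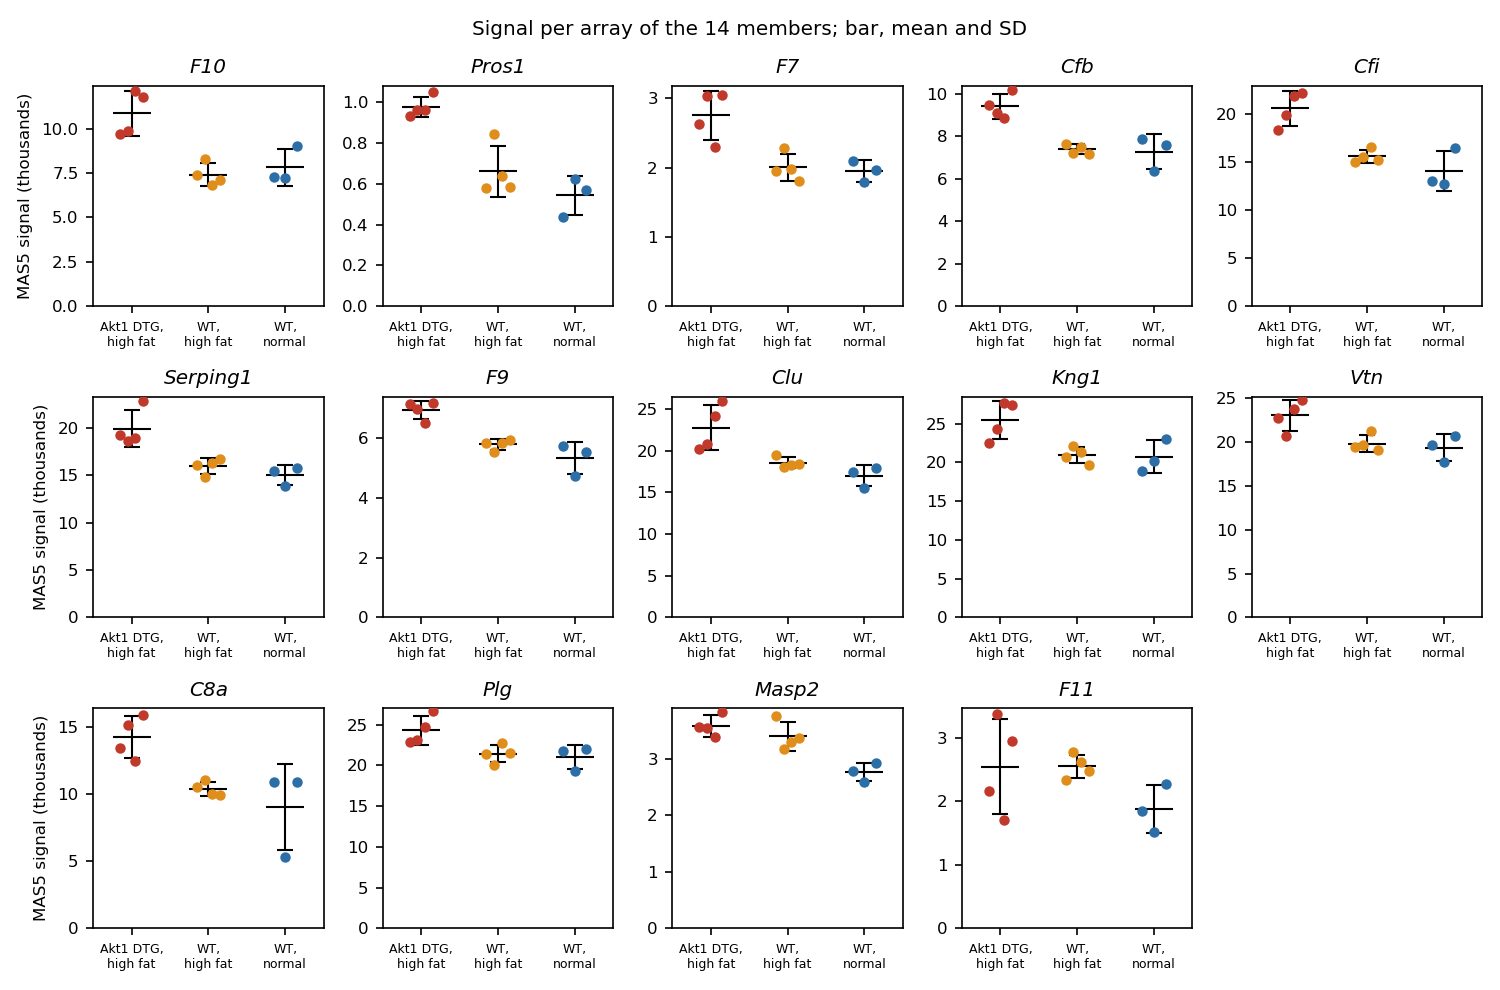
MAS5 signal (vertical axis, from 0) on each array for 14 members, with transgenic high-fat, wild-type high-fat and wild-type normal-diet mice from left to right; points are arrays and bars the mean and SD. For F10, Pros1, Cfb, Cfi and F9 the transgenic points are all above the wild-type high-fat points, and for Masp2 and F11 the wild-type high-fat points are all above the normal-diet points.

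Among complement genes, Cfb, C8a and 4 of the 5 regulators had an unadjusted p under 0.05. Cfb encodes factor B, the protease subunit of the alternative pathway convertase. Its signals were 9472, 9102, 8848 and 10168 in transgenic arrays, against 7644, 7228, 7511 and 7150 in wild-type high-fat arrays. The transgenic arrays were all higher, by a log2 difference of 0.35 ± 0.087 (1.27-fold, limma adjusted p = 0.112). C2, its counterpart in the classical pathway and its direct neighbour on the chromosome, overlapped between the groups, at 1640 ± 383 against 1373 ± 428 (SD, n = 4 each), a log2 difference of 0.27 ± 0.21. Cfp encodes properdin, which steadies that convertase and is made by leukocytes. Its signals were low, at 220.1, 389, 127 and 370.3 in transgenic arrays against 226, 274, 57.2 and 119 in wild-type high-fat arrays. These values were widely spread and overlapped, and its log2 difference of 0.81 ± 0.49 had a 95% interval of -0.26 to 1.89. Kupffer cell and macrophage markers summed to 6162 to 16747 in transgenic and 4947 to 12246 in wild-type high-fat arrays, with 11 of 13 tested markers above 0, and 0 of them passed. Neutrophil markers, 9 on the array, summed to 414 to 1867 in transgenic and 183 to 316 in wild-type high-fat arrays. In the group means most of that gap came from 1 marker, Prtn3. Prtn3, a neutrophil protease gene and the 1 of the 9 bright enough to be tested, rose by 4.89 ± 0.75 on the log2 scale (limma adjusted p = 0.0317), with mean signals of 604 ± 563 in transgenic and 19.4 ± 16.8 in wild-type high-fat mice (SD, n = 4 each). Its means in wild-type high-fat and normal-diet mice, 19.4 and 25.0, were under the limit for dim probe sets. It passed that limit only through its transgenic signals, so its selection and its difference rest on the same values. The other neutrophil markers were too dim to be tested. Of these, S100a8 had means of 64.4 in transgenic and 27.2 in wild-type high-fat mice, and S100a9 was also higher. Elane, at 56.85 ± 39.4 against 36.8 ± 18.5 (SD, n = 4 each), differed by less than the transgenic SD. Mpo, at 27.5 against 23.8, and Ngp, Ltf, Camp and Cxcr2 differed by less than the SD of either group. The part of both marker lists in the Cfp values was not tested.

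The 5 complement regulators all had positive differences, with a median of 0.29 as deposited and 0.15 after quantile normalization. Cfi encodes factor I, the protease that cuts C3b and C4b. Its signals were 18360, 19930, 21960 and 22234 in transgenic arrays, against 15042, 15547, 16650 and 15236 in wild-type high-fat arrays. All transgenic arrays were above all wild-type high-fat arrays, by 0.40 ± 0.10 on the log2 scale (1.32-fold, limma adjusted p = 0.113). After quantile normalization the difference was 0.28.

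Serping1 encodes C1 inhibitor, the serpin that restrains C1, the lectin pathway proteases and kallikrein. It had 19292, 18570, 18967 and 22806 in transgenic arrays, against 16066, 14842, 16303 and 16759 in wild-type high-fat arrays. The groups were apart, with array 4 the highest by far (log2 0.31 ± 0.089, limma adjusted p = 0.155), and the difference was 0.20 after quantile normalization. Clu encodes clusterin, a chaperone that blocks assembly of the attack complex, and had 20188, 20829, 24146 and 25935 in transgenic arrays, against 19489, 18035, 18242 and 18462 in wild-type high-fat arrays. Transgenic arrays 3 and 4 were highest and arrays 1 and 2 only a little above wild type. The log2 difference of Clu was 0.29 ± 0.095, and its other probe sets lay between 0.22 and 0.37, but it was 0.15 after quantile normalization and 0.14 without transgenic arrays 3 and 4.

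Vtn encodes vitronectin, which binds the nascent attack complex and is also an adhesion protein. Its signals were 22810, 20746, 23840 and 24806 in transgenic arrays, against 19417, 19646, 21243 and 19049 in wild-type high-fat arrays. Transgenic array 2 was below wild-type high-fat array 3, so the groups overlapped. The log2 difference was 0.21 ± 0.085, and 0.069 after quantile normalization. C4bp, which encodes the cofactor that helps factor I to cut C4b, was at 0.22 ± 0.11, and at 0.12 after quantile normalization.

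Of the 6 genes of the membrane attack complex, 5 lay above 0 and C8a alone had an unadjusted p under 0.05. After quantile normalization 3 of the 6 lay above 0, with C8g at -0.067 and C9 at -0.025, and C8a, at 0.36, had an unadjusted limma p of 0.0889. C8a encodes the alpha chain of C8, which starts membrane insertion. It had 13382, 15136, 12455 and 15855 in transgenic arrays, against 10491, 11030, 9954 and 9914 in wild-type high-fat arrays. The groups were clearly apart, with a log2 difference of 0.45 ± 0.19 (1.37-fold, limma adjusted p = 0.330). C8b, the beta chain gene and the direct neighbour of C8a, had a similar difference, 0.43 ± 0.23, but wild-type high-fat array 2, at 5844, was above transgenic arrays 1 to 3, at 5059, 5161 and 4472. C8g, the gamma chain gene on another chromosome, averaged 11891 ± 732 in transgenic and 11875 ± 1611 in wild-type high-fat mice, a difference of 0.010 with a 95% interval of -0.22 to 0.24. C9, the pore-forming subunit, was at 0.056 ± 0.22. C6 was at -0.33 ± 0.36.

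Hc, which encodes C5, was the member most spread among the transgenic mice, at 8771, 12953, 2548 and 9047 in arrays 1 to 4, against 5881, 6513, 5283 and 8532 in wild-type high-fat arrays. Transgenic array 3 was the lowest and array 2 the highest of all 11 arrays, so the groups overlapped widely (log2 0.15 ± 0.39). The coefficient of variation of Hc was 51.6% in transgenic, 21.6% in wild-type high-fat and 11.3% in normal-diet mice.

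**Figure D4:**
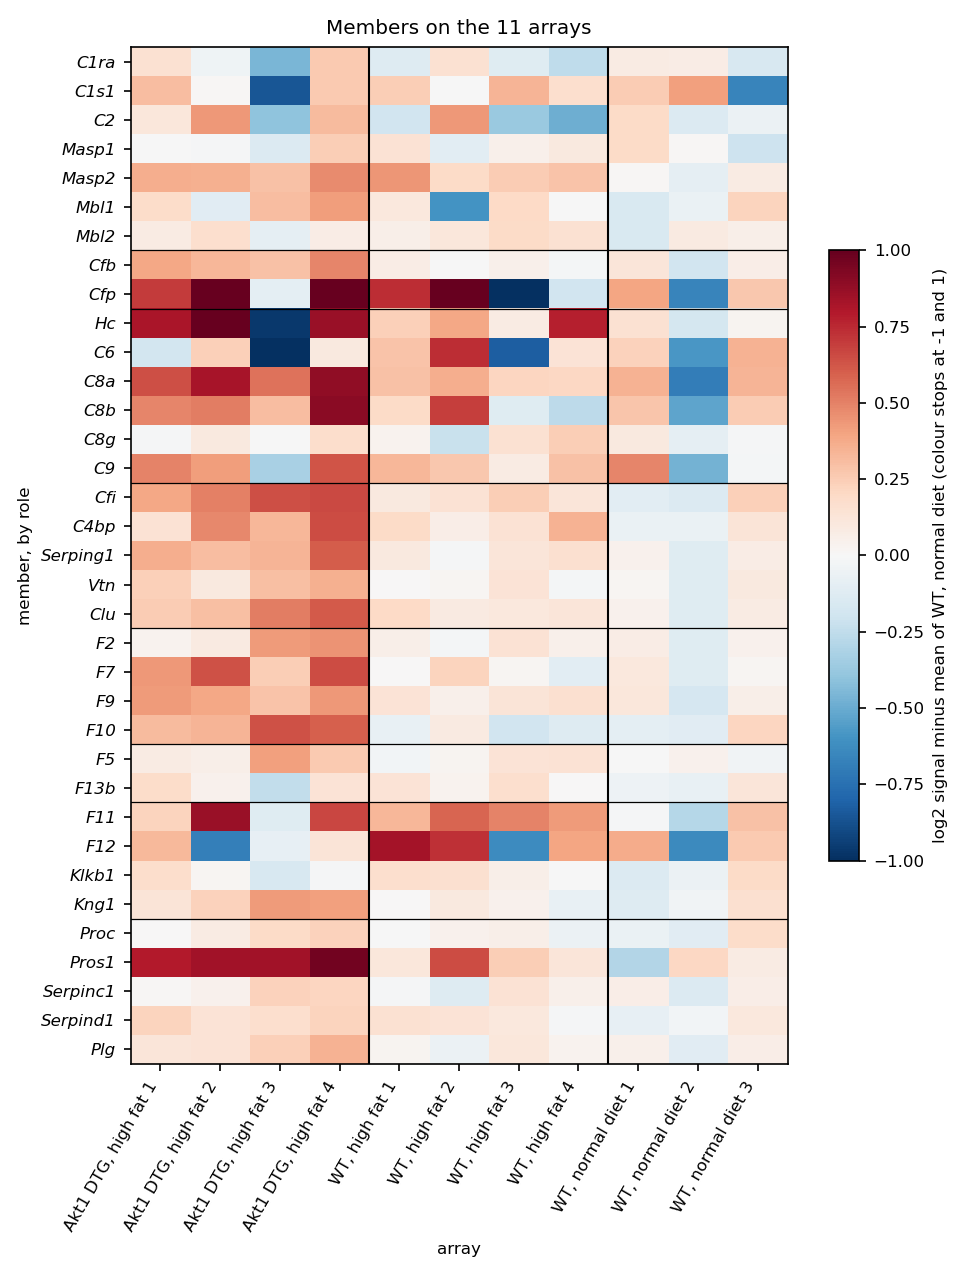
Log2 signal of the 35 members (rows, by role) on the 11 arrays (columns) minus the mean of the normal-diet arrays, red above and blue below, with the colour stopping at -1 and 1. The rows of F7, F9, F10, Pros1, Cfb and Cfi are red across transgenic arrays 1 to 4, whereas transgenic array 3 turns blue for Hc, C6, C1s1 and C2, and normal-diet array 2 is blue for C8a, C8b, C9 and F12.

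Recognition molecules and proteases of the classical and lectin pathways had no member at an unadjusted p under 0.05 between transgenic and wild-type mice fed high fat, and 4 of 7 lay above 0 with a median of 0.066. The subunit genes of C1, C1ra and C1s1, were at 0.066 ± 0.15 and -0.26 ± 0.27, and C1s1 was at 2477 in transgenic array 3 against 4516 to 5535 in the other transgenic arrays. The mannose-binding lectin genes Mbl1 and Mbl2 were at 0.27 ± 0.17 and -0.067 ± 0.086. Masp1, a lectin-associated protease gene, had a difference of -0.026 with a 95% interval of -0.27 to 0.22. Its dimmest probe set, at a mean signal of 24.3, gave 1.88 ± 0.64 and was too dim to pass the limit.

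The contact system, in which factor XII, prekallikrein and kininogen activate factor XI, had a median difference of -0.069 over 4 genes. Kng1 encodes the kininogen from which bradykinin is cut, and was the exception. It had 22528, 24261, 27689 and 27426 in transgenic arrays, against 20766, 22105, 21323 and 19660 in wild-type high-fat arrays. The groups did not overlap, with transgenic arrays 3 and 4 highest. The log2 difference was 0.28 ± 0.094 (limma adjusted p = 0.226), and 0.11 after quantile normalization, and the dimmer probe set of Kng1 had 0.34 ± 0.11. F11 was at -0.048 ± 0.19 and its chromosomal neighbour Klkb1, the prekallikrein gene, at -0.091 ± 0.10. F12 had 4179, 2078, 3159 and 3661 in transgenic arrays, against 5956, 5548, 2159 and 4399 in wild-type high-fat arrays. Both groups held low and high arrays, and the log2 difference of -0.41 ± 0.33 had a 95% interval of -1.13 to 0.31.

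Plg encodes plasminogen, the precursor of the fibrin-cutting protease plasmin. It had 22812, 23064, 24737 and 26679 in transgenic arrays, against 21431, 20102, 22703 and 21495 in wild-type high-fat arrays. The lowest transgenic array was just above the highest wild-type one. The log2 difference of 0.18 ± 0.082 was 0.028 after quantile normalization. The heparin-dependent thrombin inhibitors, antithrombin (Serpinc1) and heparin cofactor II (Serpind1), were at 0.11 ± 0.091 and 0.091 ± 0.076 as deposited, and at -0.032 and 0.039 after quantile normalization. F5, which encodes the cofactor of activated factor X, was at 0.13 ± 0.093, and F13b, the carrier subunit of the fibrin-crosslinking transglutaminase, at -0.057 ± 0.10 with a 95% interval of -0.28 to 0.17.

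The difference between the groups was also described array by array over the members as a group. With the normal-diet mean of each member set to 0, the median over the 35 members was 0.22, 0.24, 0.24 and 0.42 in transgenic arrays 1 to 4, against 0.11, 0.098, 0.11 and 0.10 in wild-type high-fat arrays 1 to 4. After quantile normalization it was 0.20, 0.24, 0.048 and 0.30 in transgenic arrays, against 0.10, 0.12, 0.038 and 0.056 in wild-type high-fat arrays. Transgenic array 3 was then inside the range of the wild-type high-fat arrays. Transgenic array 4 had the highest signal of all 11 arrays for 20 of 35 members. Transgenic array 3 was the lowest array of its group for 15 of the 22 members with a mean signal up to 10000, but for 3 of the 13 brighter ones.

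**Figure D5:**
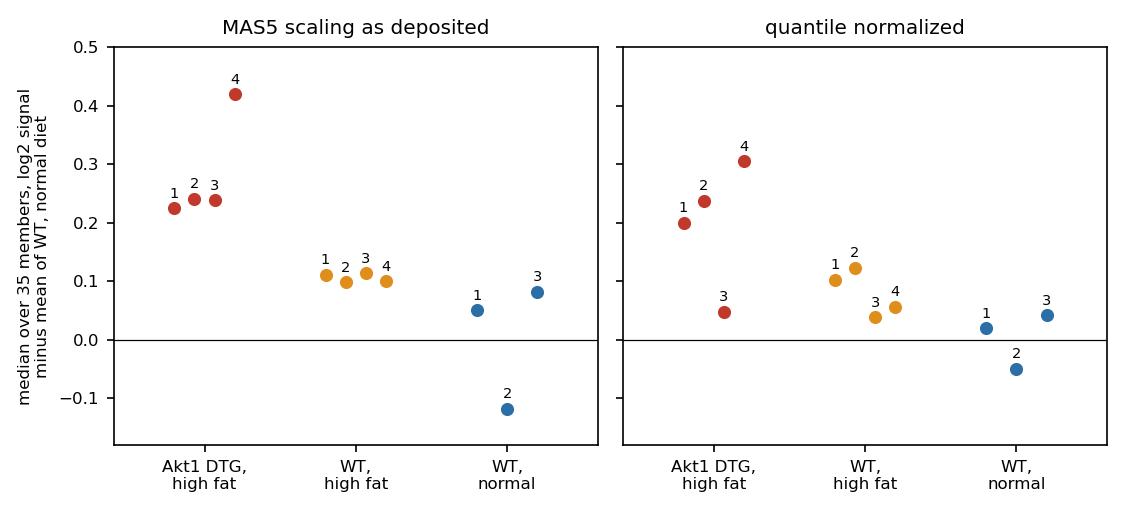
Median over the 35 members of log2 signal minus the normal-diet mean (vertical axis) on each array, numbered by replicate, with transgenic high-fat, wild-type high-fat and normal-diet mice from left to right, as deposited (left) and quantile normalized (right). As deposited, the 4 transgenic arrays lie at 0.22 to 0.42, above the wild-type high-fat arrays at 0.098 to 0.11; after quantile normalization transgenic array 3 is at 0.048.

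High-fat and normal diet were then compared in wild-type mice. No member passed (0 of 35, where 0% of all 7924 genes passed in limma's test), and the differences were small: 31 of 35 lay above 0 (88.6%, against 51.1% of all genes), with a median log2 difference of 0.086 against 0.0067 over all genes. The 9 hepatocyte markers had a median of 0.092, with 8 above 0. After quantile normalization 26 of 35 lay above 0 (74.3%). So did 116 of the 198 genes tested with a signal over 10000 and 3941 of the other 7727. Without normal-diet array 2 the median over the members was 0.011. That array had the lowest signal of all 11 arrays for 16 of 35 members. At an unadjusted p under 0.05, which 7.02% of all genes had, 2 members were higher (5.71%, against 3.92% of all genes) and 0 were lower (against 3.09%). For 3 members every high-fat array was above every normal-diet array (8.57%, against 4.58% of all genes), Masp2, F11 and Clu, and for 0 below (against 3.33%).

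Masp2 encodes the lectin pathway protease that cuts C4 and C2. Its signals were 3754, 3161, 3301 and 3356 in wild-type high-fat arrays, against 2780, 2594 and 2919 in normal-diet arrays. Every high-fat array was higher, and the means were 3393 ± 254 (SD, n = 4) and 2764 ± 163 (SD, n = 3). The log2 difference was 0.29 ± 0.092 (1.23-fold, limma adjusted p = 0.606), and the dimmer probe set of Masp2 had 0.33 ± 0.15. F11, which encodes factor XI, had 2333, 2773, 2615 and 2484 in wild-type high-fat arrays, against 1842, 1524 and 2270 in normal-diet arrays. The groups did not overlap, but normal-diet array 3 was close to the lowest high-fat array (log2 0.46 ± 0.21, limma adjusted p = 0.707). The 5 members with the smallest p between transgenic and wild-type mice fed high fat had diet differences of -0.076 ± 0.12 for F10, 0.28 ± 0.15 for Pros1, 0.036 ± 0.12 for F7, 0.027 ± 0.094 for Cfb and 0.15 ± 0.11 for Cfi.

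In transgenic high-fat mice against normal-diet mice, a comparison that combines diet and genotype and shares arrays with both others, 2 of 35 members passed, both higher (2.08% of all genes passed, and 1.4% passed as higher). Pros1 averaged 975 ± 50.2 (SD, n = 4) in transgenic mice and 543 ± 93.8 (SD, n = 3) in normal-diet mice, whose arrays read 439, 621 and 568. It rose by 0.86 ± 0.15 on the log2 scale (1.81-fold, limma adjusted p = 0.0173). Cfi averaged 20621 ± 1824 (SD, n = 4) in transgenic mice and 14133 ± 2093 (SD, n = 3) in normal-diet mice, whose arrays read 13053, 12799 and 16546. It rose by 0.55 ± 0.11 (1.46-fold, limma adjusted p = 0.0277). In both genes every transgenic array was above every normal-diet array.

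Both calls depended on single arrays. Pros1 no longer passed without normal-diet array 1 (limma adjusted p = 0.0577) or without transgenic array 4 (0.0635). Cfi no longer passed without normal-diet array 1 (0.0830), without normal-diet array 2 (0.106), without transgenic array 3 (0.0609) or without transgenic array 4 (limma adjusted p = 0.0807), and neither gene passed without transgenic arrays 3 and 4 together (0.130 for Pros1 and 0.160 for Cfi). Cfi also missed the threshold in limma's test with no filter on dim probe sets (adjusted p = 0.0608), with every probe set tested (0.0666), without an intensity trend (0.0631) and with only the groups compared (0.0779). At an unadjusted p under 0.05, which 18.3% of all genes had, 16 members were higher (45.7%, against 9.96% of all genes) and 0 lower (against 8.35%). The arrays did not overlap for 15 members, all higher in transgenic mice (42.9%, against 8.46% of all genes), where 7.1% of all genes were lower without overlap. The median over the members, where the 9 hepatocyte markers had 0.29, was 0.25 as deposited and 0.16 after quantile normalization. With that normalization 27 of 35 lay above 0 in place of 31. Among all genes tested, 105 of the 198 with a signal over 10000 and 3676 of the other 7727 then lay above 0.

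Other complement and clotting genes were described from a list of 51, of which 42 were on the array and 29 were tested. Between transgenic and wild-type mice fed high fat 0 passed, 22 of 29 lay above 0 (50.2% of all genes did), and 8 were higher and 1 lower at an unadjusted p under 0.05 (6.95% and 6.74% of all genes). Serpina10 encodes the protein Z-dependent inhibitor of factor X and had the smallest p of these. Its log2 difference was 0.52 ± 0.11 (limma adjusted p = 0.0721), with mean signals of 11697 ± 1877 in transgenic and 8111 ± 404 in wild-type high-fat mice (SD, n = 4 each). Serpinf2, the gene of the plasmin inhibitor alpha-antiplasmin, was at 0.35 ± 0.088. F2r, the gene of a thrombin receptor, was the one lower, at -1.14 ± 0.34. The vitamin K enzymes Ggcx, the carboxylase, and Vkorc1, the epoxide reductase, were at 0.39 ± 0.33 and -0.0025 ± 0.11. Proz, the gene of protein Z, was at -0.013 ± 0.086.

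For diet in wild-type mice, 0 of these 29 genes passed, with 3 higher and 1 lower at an unadjusted p under 0.05 (0% of all genes passed, and 3.92% were higher and 3.09% lower). Against the normal diet, 3 of the 29 rose in transgenic mice and 0 fell, where 1.4% of all genes rose: Serpina10 (0.78 ± 0.12, limma adjusted p = 0.00997), Cpn2, a subunit of carboxypeptidase N, which inactivates complement anaphylatoxins (0.52 ± 0.088, adjusted p = 0.0157), and Serpinf2 (0.44 ± 0.095, adjusted p = 0.0413). At an unadjusted p under 0.05, 14 of the 29 were higher in transgenic than in normal-diet mice and 0 were lower (9.96% and 8.35% of all genes). C1qa, C1qb and C1qc encode the recognition subunits of C1 that macrophages make. Between transgenic and wild-type mice fed high fat they had differences of 0.58 ± 0.32, 0.56 ± 0.36 and 0.54 ± 0.39. In that comparison 0 of the 3 had an unadjusted p under 0.05. Against the normal diet all 3 were higher in transgenic mice, each by more than 1 on the log2 scale. The unadjusted p-values in limma's test were 0.0115, 0.0121 and 0.0136, with adjusted p of 0.148 to 0.158. Kupffer cell and macrophage markers summed to 6162 to 16747 in transgenic, 4947 to 12246 in wild-type high-fat and 3625 to 6740 in normal-diet arrays, and 2 of 13 tested markers, Cd5l and Folr2, rose in transgenic against normal-diet mice. That marker list holds C1qa, C1qb and C1qc themselves, so its sums and counts are not separate from the C1q values. The part of the other markers in the differences of the C1q genes was not tested.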

How the data were processed

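The deposited tables hold intensity values, linear signals that the authors computed with MAS5, per the submitters' processing notes, for 22690 probe sets on 11 arrays. No version of MAS5 is given there. Each array's 2% trimmed mean was 500.251 to 500.285, so the arrays were not rescaled. The 1386 values under 1 were set to 1 and log2 was taken. Probe sets with several symbols (691), with none (1555) or that were controls (64) were left out, together with the dimmest 40% by mean log2 signal. Each gene was represented by its brightest probe set, giving 7924 genes. All 11 arrays entered a single limma fit (version 3.58.1, R 4.3.3, eBayes with a trend on intensity), with two-sided p-values and Benjamini-Hochberg adjustment over the 7924 genes. The value after ± is the SE of limma's moderated test for log2 differences and the SD for signals. The fit was tested on simulated data.

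Members and lists were chosen with earlier results of these data known. Values per array are given for members with an unadjusted p under 0.05 in transgenic against wild-type high-fat mice or for diet, or past the adjusted threshold in any comparison. Values per array of F2, Hc, F12, C8b, Cfp and C1s1 are shown as well, chosen after their values were seen. Alternatives were quantile normalization, log2(signal + 32), other filters, every probe set, other variance models, array weights, only the groups compared, a replicate block and left-out arrays. Gene names follow the platform annotation, and sequences are from RefSeq (GRCm38.p6). Each array is a separate mouse, per the series design. Detection calls were not used here.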

Additional observations from a re-analysis of the deposited data

Results flagged for a closer look

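One value stood far from the rest of its group, among 70 groups of 4 arrays checked over the members, where chance gives about 1 in 20. Serping1, the C1 inhibitor gene, had a signal of 22806.2 in transgenic array 4, against 18569.6 to 19291.9 in the other 3 transgenic arrays. Its gap to the next array was 0.830 of the group's range, just over Dixon's limit for 4 arrays. Transgenic array 4 was also the highest of all 11 arrays for 20 of 35 members.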

How the results depend on the processing

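For the members with an unadjusted p under 0.05, 0 of 228 alternative values for the transgenic comparison on the high-fat diet, 0 of 34 for diet and 0 of 288 for transgenic against normal-diet mice changed sign. These members were picked by p in the same data, and the alternatives share most arrays. A change of sign was therefore unlikely from the start. Members called in the transgenic comparison were 0, or 1 with array weights, and 0 to 2 with 1 array left out, while 8 to 14 had an unadjusted p under 0.05 and the median was 0.11 to 0.21. Against the normal diet 2 were called, or 1 with no filter, 1 with every probe set, 1 without an intensity trend, 1 with only the groups compared, 3 with quantile normalization, 3 with robust eBayes, 5 with a 60% filter, 6 with array weights, 0 without transgenic arrays 3 and 4 together and 0 to 3 with 1 array left out. The median there was 0.16 after quantile normalization, outside the spread between arrays. For diet, 0 members were called throughout, and 2 had an unadjusted p under 0.05, or 1 with a 60% filter, without a trend or with the replicate block, 3 with only the groups compared, and 1 to 3 with 1 array left out. Over all genes, 29 were called in the transgenic comparison, or 12 with no filter, 0 without a trend, 58 with array weights, 8 with only the groups compared, 4 without transgenic arrays 3 and 4 together, 0 to 64 with 1 array left out and 22 to 34 in the other settings. Diet gave 0, or 1 with array weights, 2 with the replicate block and 0 to 2 with 1 array left out. Transgenic against normal-diet mice gave 165, or 81 without a trend, 104 with only the groups compared, 23 without transgenic arrays 3 and 4 together, 36 to 162 with 1 array left out and 115 to 201 in the other settings. The causes were not tested. Deviations from the group means of arrays with the same number had correlations of 0.084 to 0.29 in the transgenic comparison. They were -0.072 to 0.029 for diet and -0.059 to 0.11 for transgenic against normal-diet mice. Arrays of unlike number were not compared, so these values cannot decide whether the numbers mark pairs. The numbers were not taken as pairs in the main fit. With the replicate block 0 members were called in the transgenic comparison, 12 had an unadjusted p under 0.05, and 2 were called against the normal diet. The fit without transgenic arrays 3 and 4 was chosen after seeing the data. With 3 or 4 arrays a group, precision is low.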
